A study of Mus musculus with 5 samples.

Results

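Leydig cells isolated from testes of mice aged 56 days (2 arrays) were compared with embryonic fibroblasts (MEF, 1 array) over every gene that the platform annotation names. The comparison asks which transcripts separate the adult steroid-producing cell from the fibroblast that the study set out to convert into a Leydig-like cell. A gene was kept where both Leydig arrays read on the same side of the MEF array, which held for 14706 of 19084 genes. The MEF culture was grown from mouse embryos of 13.5 days after removal of head and viscera, and received a mock vector. By the study's treatment text, which is the same for every sample, fibroblasts spent 12 hours with virus and then went into a medium with the factors IGF (50 ng/ml) and, at a lower dose, PDGFAA (10 ng/ml). It speaks of transduced fibroblasts, does not say separately whether the MEF with mock vector received these factors, and mentions no isolated Leydig cells. The iLC group, 2 arrays of such fibroblasts given Dmrt1, Gata4 and Nr5a1 by lentivirus, entered only the estimate of spread. RNA of every sample was amplified and labelled with Cy5, with 1 sample per array. The labels give no strain, no purification method for the Leydig cells and no statement that arrays of a pair came from separate mice or cultures. The p-values therefore measure the spread between these arrays only. Adult against embryonic age, isolation against culture, testis against body tissue, the vector and any IGF and PDGFAA in the medium all differ between the groups in the same way, and their shares in any difference cannot be told apart.

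Leydig cells lie between the seminiferous tubules of the testis and make androgen from cholesterol. Cholesterol enters the mitochondrion through STAR, is cut to pregnenolone by CYP11A1 with electrons passed on by ferredoxin, and becomes androgen through 3-beta-hydroxysteroid dehydrogenase, CYP17A1 and a 17-beta-hydroxysteroid dehydrogenase. Luteinizing hormone drives the pathway through cAMP, and the nuclear receptor NR5A1 turns on most of its genes. Cultured fibroblasts by contrast divide, lay down matrix and carry contractile fibres.

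Both Leydig arrays read above the MEF array for 6288 genes (32.9%) and below it for 8418 (44.1%), and 4378 genes were split. The difference between the groups was tested for each gene with limma on log2(intensity + 16), and a gene is called where its Benjamini-Hochberg adjusted p was under 0.05. Called genes numbered 637 higher in Leydig cells (3.34% of genes) and 757 lower (3.97%), with differences of 1.68 to 9.33 log2 units in size. All lay on one side of the MEF array on both Leydig arrays. Without a test, 600 genes (3.14%) read higher by at least 2 log2 units on both arrays and 665 (3.48%) read lower by as much. The shares to set beside the lists below are 32.9% above, 44.1% below, 3.34% called higher and 3.97% called lower. The median difference over all genes was -0.10. Median intensities were 1144 (MEF), 1111 and 1230 (Leydig). Readings of a gene are given below as probe intensities, those of the Leydig pair with replicate 1 first, and a difference is always that of the group means of log2(intensity + 16), Leydig minus MEF. The log2 values of the Leydig arrays correlated at 0.962 with each other and at 0.899 and 0.875 with those of the MEF array, over genes and so not over independent replicates. The low ends differed, with the 1st percentile at 83.8 for MEF and at 36.9 and 21.0 for the Leydig pair. Detection flags were not used here. Of the genes called higher 233 read under 600 on the MEF array, and of those called lower 286 read under 600 on both Leydig arrays, so the size of their differences rests on dim readings. Without Leydig replicate 2 the test called 79 genes higher and 74 lower, and without replicate 1 it called 381 and 310. Each of these fits sets 1 Leydig array against 1 MEF array and takes its spread from the iLC pair alone, so it says nothing about variation among Leydig samples. Counts and differences without a Leydig array are given below in that sense.

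**Figure D1:**
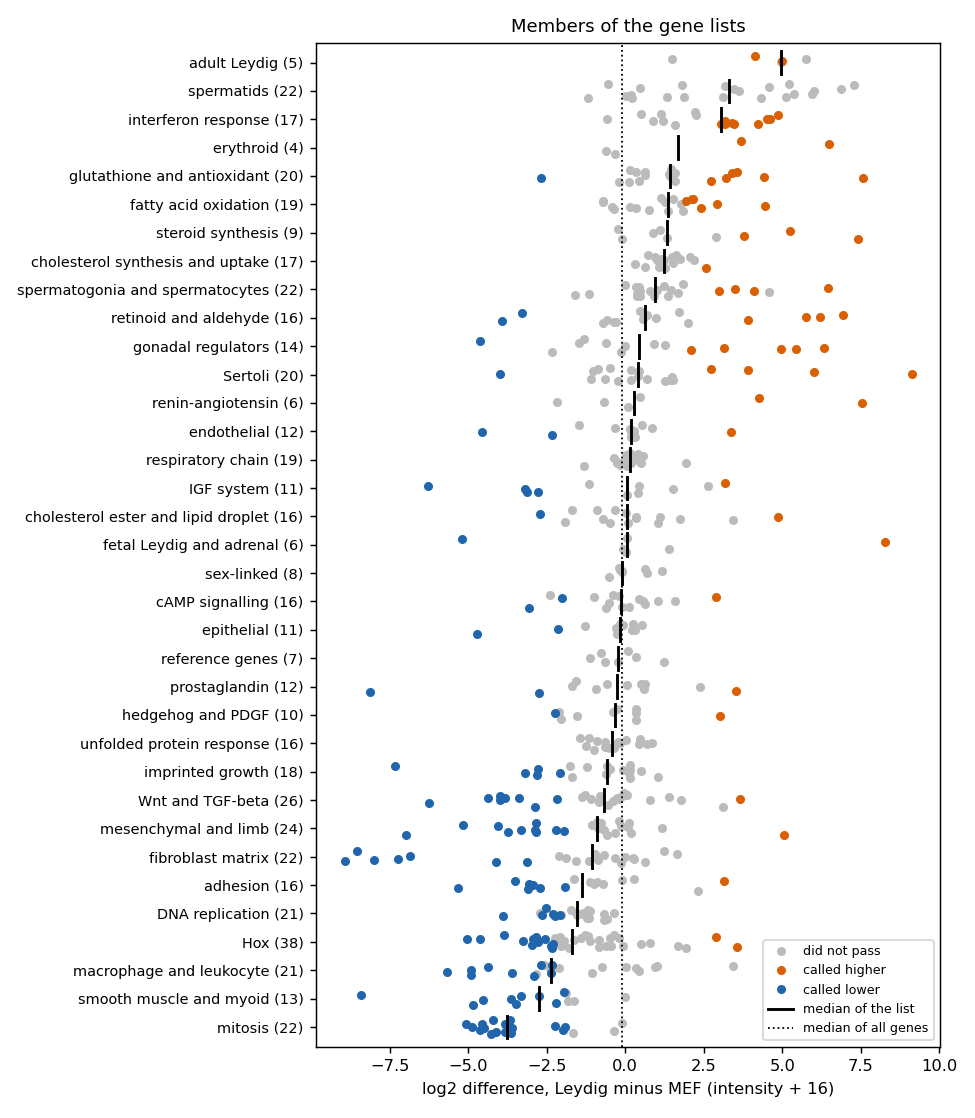
Difference between Leydig cells and MEF on the log2(intensity + 16) scale (horizontal axis) for the measured members of 35 gene lists, with the number measured in brackets. Each point is a gene, orange where called higher, blue where called lower and grey where it did not pass. The black bar is the list's median and the dotted line the median of all genes (-0.10). Mitosis (-3.75) lies at the bottom, and adult Leydig genes (4.97), spermatid genes (3.31) and interferon response genes (3.04) at the top.

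Of the 9 measured steroid synthesis genes, Hsd3b1, Cyp17a1 and Fdx1 were called higher in Leydig cells and none lower (4 without Leydig replicate 1 and 1 without replicate 2). The list had 7 members above the MEF array on both Leydig arrays, and its median difference was 1.32. Hsd3b1, the enzyme that turns pregnenolone into progesterone, had readings of 829.9 in MEF and 218338 and 95740.3 in the Leydig pair, a difference of 7.42 ± 0.56 (SE, limma adjusted p = 0.00297). Cyp17a1, which commits steroids to androgen synthesis, read 2344 in MEF and 40614 and 197728 in the Leydig pair. Both Leydig arrays were far above the fibroblasts, but replicate 2 was well above replicate 1, and the difference was 5.25 ± 0.91 (SE, limma adjusted p = 0.0234). Fdx1, the mitochondrial ferredoxin, read 12392 in MEF and 136753 and 212818 in the Leydig pair, a difference of 3.78 ± 0.43 (SE, limma adjusted p = 0.00707). The call of Cyp17a1 (4.11) and Fdx1 (3.46) was lost without Leydig replicate 2, at adjusted p of 0.0551 to 0.0664. With 1 added in place of 16 the Cyp17a1 call was also lost (5.26, adjusted p = 0.051).

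The remaining steroid genes did not pass the test. Star, the carrier of cholesterol into mitochondria, read 695 in MEF and 1368 and 19703 in the Leydig pair. Its Leydig arrays disagreed, replicate 1 lying close to the fibroblasts, and the difference of 2.88 (adjusted p = 0.327) came with a standard error of 1.39. Its other probe gave 2.17. With 1 Leydig array against 1 MEF array the Star difference was 4.79 without replicate 1 (adjusted p = 0.0349) and 0.96 without replicate 2, the spread in each fit being that of the iLC pair. Cyb5a, a cofactor of CYP17A1, read 28394 in MEF and 70323 and 71059 in the Leydig pair. Tspo, an outer mitochondrial membrane protein, read 28080.3 against 86894 and 42754, and Scarb1, a receptor for lipoprotein cholesterol, 25910.4 against 61599.5 and 37023. Both Leydig arrays were above the MEF array for these 3 genes, with differences of 1.32, 1.12 and 0.88. Cyp11a1, the enzyme of the first step and a defining gene of steroid-producing cells, read 562 in MEF and 509.8 and 451 in the Leydig pair, so this probe was dim and did not read higher in the Leydig pair. Hsd17b3, which makes testosterone, was split, at 2165 in MEF and 1124 and 3679.9 in the Leydig pair.

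Of 12 listed adult Leydig markers 5 had a named probe, and all 5 read above the MEF array on both Leydig arrays, Hao2 and Akr1c14 being called (3 without Leydig replicate 1 and 1 without replicate 2). The median difference was 4.97, and 4.29 and 2.44 on replicates 2 and 1 taken alone. Hao2, a peroxisomal hydroxyacid oxidase, read 1401 in MEF and 22389.5 and 27717 in the Leydig pair, a difference of 4.14 ± 0.39 (SE, limma adjusted p = 0.00435). Akr1c14, a 3-alpha-hydroxysteroid dehydrogenase, read 351 in MEF and 28328 and 4675 in the Leydig pair, with replicate 1 the higher of the pair and a difference of 4.98 ± 0.97 (SE, limma adjusted p = 0.0333). Its call was lost when the MEF and Leydig arrays were fitted without the iLC pair (adjusted p = 0.0695), with 1 added in place of 16 (0.0669) and with the low ends of the arrays aligned (0.0701). Ptgds, a prostaglandin D synthase, read 408 in MEF and 2214 and 235608 in the Leydig pair, and Sult1e1, the estrogen sulfotransferase, 150.2 in MEF and 888 and 30056 in the Leydig pair. For these 2 genes replicate 2 carried nearly all of the signal, and neither passed (differences 5.76, adjusted p = 0.272, and 4.97, adjusted p = 0.264). Ptgds passed without replicate 1 (9.12, adjusted p = 0.0455). Hsd11b1, which interconverts glucocorticoids, read 593 in MEF and 1559 and 1843 in the Leydig pair and missed the threshold with 1.49 (adjusted p = 0.0717). Hao2 (3.98) did not pass without Leydig replicate 2, at adjusted p = 0.0513. Insl3, Lhcgr, Prlr, Srd5a1 and 3 kallikrein genes of the list, and Hsd3b6, Fdxr and Por of the steroid list, are not analysed here. In these bulk samples fewer cells of a type and less RNA per cell cannot be told apart. Transcripts of late spermatids, described further on, were also much higher on replicate 2, and their part in the gap between the Leydig arrays was not tested.

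**Figure D2:**
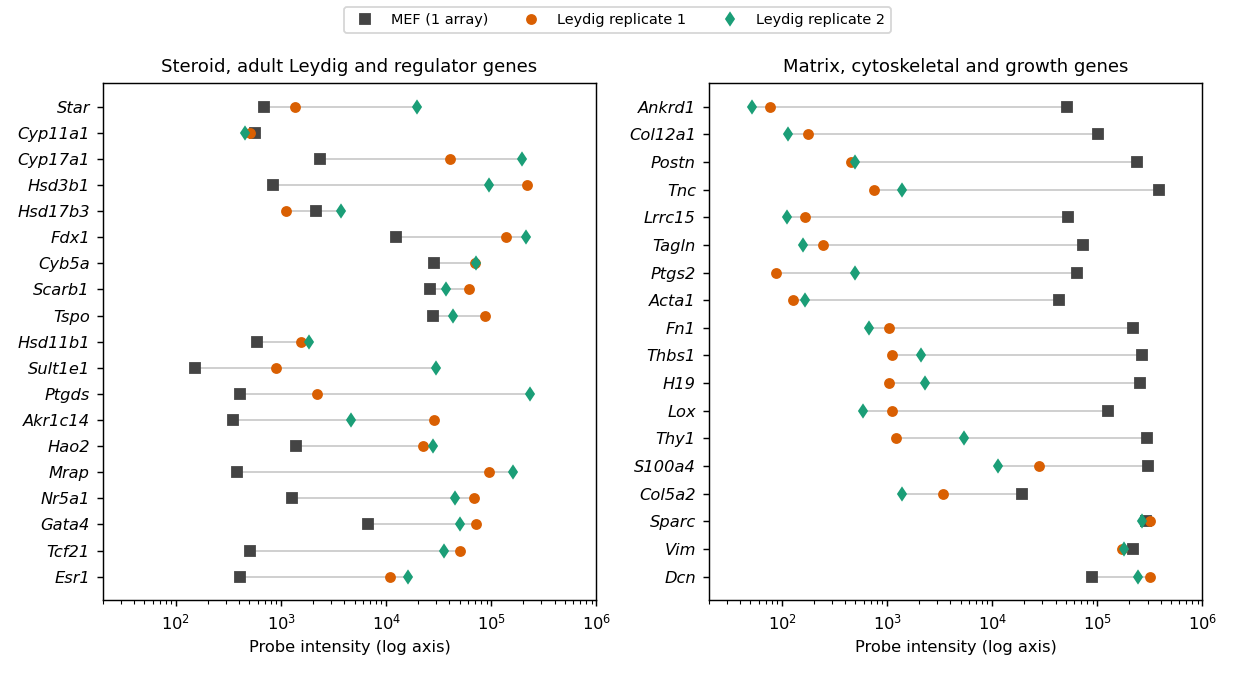
Probe intensity on a log axis for 19 steroid, adult Leydig and regulator genes (left) and 18 matrix, cytoskeletal and growth genes (right), with 1 marker per array for MEF, Leydig replicate 1 and Leydig replicate 2. The Leydig markers lie apart for Star (1368 and 19703) and Ptgds (2214 and 235608) and close together for Nr5a1 (68030 and 44721). Sparc and Vim stay near the MEF reading while Ankrd1, Col12a1 and Postn do not.

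Regulators of the gonad were split between both directions, with 5 of 14 called higher, 1 called lower (3 higher and 2 lower without Leydig replicate 1, 2 higher and 1 lower without replicate 2) and a median of 0.45. Nr5a1, the nuclear receptor at the head of the steroidogenic programme, read 1265 in MEF and 68030.1 and 44721 in the Leydig pair, a difference of 5.43 ± 0.44 (SE, limma adjusted p = 0.00338). Gata4, a zinc-finger factor of the somatic gonad, read 6773 in MEF and 71888 and 50891 in the Leydig pair, a difference of 3.16 ± 0.43 (SE, limma adjusted p = 0.0111). The 2 Leydig arrays lay close together and clear of the MEF array for both genes. Tcf21, a factor of gonadal and visceral mesenchyme, read 506 in MEF and 49873 and 35286 in the Leydig pair (difference 6.33, adjusted p = 0.00435). Esr1, the estrogen receptor alpha, read 411 in MEF and 10872 and 16255 in the Leydig pair (difference 4.96, adjusted p = 0.00381). Nr2f2, also called COUP-TFII and a marker of testicular interstitial cells, read 4889.6 in MEF and 26963 and 16414 in the Leydig pair and was called by a narrow margin (difference 2.10, adjusted p = 0.0471). In the opposite direction Emx2, a homeobox gene of the urogenital ridge, read 8688 in MEF and 428 and 259.8 in the Leydig pair (difference -4.64, adjusted p = 0.00435). Gata6, a close relative of Gata4, lay below the fibroblasts without passing, at 4730.1 in MEF and 1789 and 2039 in the Leydig pair (difference -1.30, adjusted p = 0.128). Without replicate 2 the call was lost for Tcf21 (6.58), at adjusted p = 0.0546. With either Leydig array left out (differences without replicate 1, then without replicate 2) the call was lost for Gata4 (2.91 and 3.40) and Nr2f2 (1.74 and 2.46), with adjusted p up to 0.129.

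Mrap, which carries the ACTH receptor to the cell surface, gave the largest difference among the 6 fetal Leydig and adrenal genes. It read 383 in MEF and 94209 and 160866 in the Leydig pair, a difference of 8.27 ± 0.46 (SE, limma adjusted p = 0.00132). The adrenal 11-beta-hydroxylase gene Cyp11b1 read 275 in MEF and 322 and 1730.2 in the Leydig pair and did not pass (difference 1.40, adjusted p = 0.475). Thbs2, a matrix thrombospondin of the same list, was lower, at 36514 against 1949 and 492 (difference -5.19, adjusted p = 0.0152), and the list's median was 0.04. Of 16 genes of cAMP signalling, with no gene of luteinizing hormone or its receptor among them, 1 was called higher and 2 lower. Their median was -0.14. Adcy9, an adenylyl cyclase, read 1829.5 in MEF and 14219 and 13174 in the Leydig pair, a difference of 2.89 (adjusted p = 0.0106). Pde4b, a phosphodiesterase that breaks cAMP down, read 4128 in MEF and 345 and 672 in the Leydig pair, a difference of -3.06 (adjusted p = 0.0356), although its other probe gave 0.20. Prkar2a, a regulatory subunit of protein kinase A, differed by -2.01 (adjusted p = 0.0399). Thbs2 (-4.22) lost the call when Leydig replicate 2 was left out, at adjusted p = 0.0513. Adcy9 (2.84 and 2.95), Pde4b (-2.59 and -3.52) and Prkar2a (-1.74 and -2.28) lost the call whichever Leydig array was left out (values without replicate 1, then without replicate 2), with adjusted p up to 0.137.

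The receptors for platelet-derived growth factor went opposite ways. Pdgfra, which adult Leydig cell precursors carry, read 15980.0 in MEF and 180686 and 92654 in the Leydig pair, a difference of 3.02 ± 0.52 (SE, limma adjusted p = 0.0233). Pdgfrb, the receptor of pericytes and fibroblasts, read 31446 in MEF and 5726 and 7849.9 in the Leydig pair, a difference of -2.23 ± 0.40 (SE, limma adjusted p = 0.0253). These were the only calls among the 10 genes of hedgehog and platelet-derived growth factor signalling (0 higher and 0 lower with either Leydig array left out), whose median was -0.33. 4 further genes of receptors and ligands were chosen after their values were seen. Amhr2, the receptor of anti-Müllerian hormone, read 515 in MEF and 23610.1 and 19288 in the Leydig pair (difference 5.33, adjusted p = 0.0117). Lifr, the leukaemia inhibitory factor receptor, read 3177 in MEF and 101798 and 75551 in the Leydig pair (difference 4.78, adjusted p = 0.00432), and Cntf, a ligand of a receptor complex that holds the LIFR chain, read 507 in MEF and 14411 and 12369 in the Leydig pair (difference 4.68, adjusted p = 0.00399). Kit, a receptor tyrosine kinase found on adult Leydig cells and on spermatogonia, read 553 in MEF and 47570.1 and 18913 in the Leydig pair (difference 5.72, adjusted p = 0.0109). With replicate 2 left out the test did not call Lifr (5.0) and Cntf (4.79), at adjusted p = 0.0513. Left out one at a time, the Leydig arrays each ended the call of Pdgfra (2.53 and 3.50), Pdgfrb (-2.0 and -2.45), Amhr2 (5.18 and 5.48) and Kit (5.06 and 6.39) (differences without replicate 1, then without replicate 2), with adjusted p up to 0.094.

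Because Nr5a1 was among the called genes, promoters were searched for its extended half-site CAAGGTCA on both strands, and, for the contractile genes described further on, for the CArG box that serum response factor binds. RefSeq promoters of the assembly GRCm38.p6, 250 bases before to 50 bases after the transcript start, were held for 14967 of the genes, among them 482 of the genes called higher and 580 of those called lower. The half-site stood in 1.42% of all these promoters (212), in 2.7% of those of genes called higher (13) and in 0.172% of those of genes called lower (1). The CArG box stood in 1.63% of all (244), in 1.45% of those called higher (7) and in 3.97% of those called lower (23). Such a match describes letters in this window, with no test and no statement about binding. The letters of the motifs do not overlap with each other in the stretches printed here. For the half-site, 4 genes with a match are shown, chosen only among genes called higher and by the largest differences. For the CArG box, 4 were chosen in the same way only among genes called lower. Matches in genes called in the other direction, counted above, could not be chosen. The choice left out 1 chromosome. The stretches run 5′ to 3′ along the gene, with the motif in capitals on whichever strand it was found (TGACCTTG is the half-site read on the opposite strand).
Susd3, chr13:49248413-49248480, minus strand, motif 156 to 149 bases before the start: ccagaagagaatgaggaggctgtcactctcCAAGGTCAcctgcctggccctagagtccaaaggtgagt
Amhr2, chr15:102445117-102445172, plus strand, motif 232 to 225 bases before the start: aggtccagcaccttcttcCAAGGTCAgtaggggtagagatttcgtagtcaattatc
Lifr, chr15:7129322-7129362, plus strand, motif 247 to 240 bases before the start: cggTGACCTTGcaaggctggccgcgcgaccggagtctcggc
Cntf, chr19:12765677-12765744, minus strand, motif 82 to 75 bases before the start: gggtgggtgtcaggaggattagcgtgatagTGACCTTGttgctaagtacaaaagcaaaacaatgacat
Acta1, chr8:123894809-123894878, minus strand, motif 73 to 64 bases before the start: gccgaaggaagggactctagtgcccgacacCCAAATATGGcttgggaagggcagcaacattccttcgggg
Fhl1, chrX:56779551-56779620, plus strand, motif 102 to 93 bases before the start: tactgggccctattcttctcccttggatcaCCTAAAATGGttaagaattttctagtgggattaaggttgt
Lurap1l, chr4:80910478-80910547, plus strand, motif 178 to 169 bases before the start: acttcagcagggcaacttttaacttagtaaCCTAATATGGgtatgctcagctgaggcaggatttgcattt
Pdgfc, chr3:81036369-81036415, plus strand, motif 17 to 8 bases before the start: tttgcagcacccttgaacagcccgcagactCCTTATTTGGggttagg

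By the choice made above, the first 4 of these genes were higher in Leydig cells and the last 4 lower, so their directions are no result. Susd3, a sushi domain gene known from estrogen-responsive breast cells, read 943 in MEF and 66232 and 70152 in the Leydig pair, a difference of 6.15 ± 0.52 (SE, limma adjusted p = 0.00362). Acta1, the skeletal muscle actin, read 42869 in MEF and 128 and 166 in the Leydig pair, a difference of -8.05 ± 0.39 (SE, limma adjusted p = 0.00132). Fhl1, a LIM-domain protein of muscle, read 276020.0 in MEF and 2978 and 1667 in the Leydig pair (difference -6.94, adjusted p = 0.00297). Pdgfc, a ligand of the receptor that Pdgfra encodes, read 25751 in MEF and 1146 and 679 in the Leydig pair (difference -4.84, adjusted p = 0.0071), and Lurap1l read 54153 in MEF and 1017 and 1581 in the Leydig pair (difference -5.40, adjusted p = 0.0031). All 8 differences exceeded 4 log2 units in size. The test no longer called Susd3 (6.11) and Pdgfc (-4.47) without replicate 2, at adjusted p of 0.0532 to 0.0677.

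Genes of cholesterol synthesis and uptake lay on the Leydig side as a body, though few passed singly. Of 17, 15 read above the MEF array on both Leydig arrays, none below it on both, and 1 was called (0 with either Leydig array left out), against 32.9% above and 3.34% called over all genes. With 64 added, the filter on dim genes, quantile normalization or a mean-variance trend 4 were called. Their median difference was 1.25. The called gene was Dhcr7, the last enzyme of the pathway, at 3695 in MEF and 19731 and 24643 in the Leydig pair (difference 2.57, adjusted p = 0.0152). Nsdhl, a sterol dehydrogenase, read 629 in MEF and 4284 and 1999 in the Leydig pair, and Cyp51, the lanosterol demethylase, 14346 in MEF and 69773 and 51588 in the Leydig pair. Both were higher on both Leydig arrays but missed the threshold (differences 2.19, adjusted p = 0.0637, and 2.06, adjusted p = 0.0586). Among 16 genes of cholesterol esters and lipid droplets, Abca1 and Lipe were called in opposite directions (2 higher and 0 lower without Leydig replicate 1, 1 higher and 0 lower without replicate 2), and the median was 0.05. Abca1, which exports cholesterol, read 6107 in MEF and 206191 and 152879 in the Leydig pair (difference 4.86, adjusted p = 0.0039). Lipe, the hormone-sensitive lipase, read 4061 in MEF and 760.1 and 493 in the Leydig pair (difference -2.70, adjusted p = 0.0188). The calls needed both Leydig arrays for Dhcr7 (2.73 and 2.41) and Lipe (-3.0 and -2.39), given as differences without replicate 1, then without replicate 2, with adjusted p up to 0.0924.

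The enzymes that oxidise alcohols and retinal gave some of the strongest Leydig signals. Aldh1a1, a retinal dehydrogenase, read 6603 in MEF and 510912 and 454706 in the Leydig pair, a difference of 6.19 ± 0.37 (SE, limma adjusted p = 0.00157). Adh1, the class I alcohol dehydrogenase, read 2128 in MEF and 379195 and 180778 in the Leydig pair (difference 6.93, adjusted p = 0.00324), and Aldh1a7, a close copy of Aldh1a1, 2031 in MEF and 91051 and 133606 in the Leydig pair (difference 5.75, adjusted p = 0.00297). Aldh1a1 and Aldh1a7 are near-identical, and how far their probes tell them apart was not tested. Aldh1a2 was also called higher (difference 3.92, adjusted p = 0.0205). The cellular retinoic acid binding proteins went the other way, Crabp2 reading 30114 in MEF and 2137 and 1796 in the Leydig pair (difference -3.93, adjusted p = 0.00855) and Crabp1 differing by -3.29 (adjusted p = 0.013). In all, 4 of 16 retinoid and aldehyde genes were called higher and 2 lower (4 higher and 0 lower without Leydig replicate 1, 3 higher and 0 lower without replicate 2), with a median of 0.64. The call of Aldh1a2 (3.16) was lost without Leydig replicate 2, at adjusted p = 0.0651. With either Leydig array left out (differences without replicate 1, then without replicate 2) the call was lost for Crabp2 (-4.06 and -3.81) and Crabp1 (-3.34 and -3.24), with adjusted p up to 0.0924.

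Glutathione transferases were another enzyme group on the Leydig side. Over all genes 32.9% read higher on both Leydig arrays, 3.34% were called higher and 3.97% lower. Of 20 glutathione and antioxidant genes, 15 read higher on both arrays, 6 were called higher and 1 lower (4 higher and 0 lower without Leydig replicate 1, 2 higher and 0 lower without replicate 2), and the median was 1.43. Gsta3, an alpha-class transferase with steroid isomerase activity, read 926 in MEF and 151867 and 209494 in the Leydig pair, a difference of 7.57 ± 0.47 (SE, limma adjusted p = 0.00165). Gstm2, a mu-class transferase, read 4911 in MEF and 105955 and 104658 in the Leydig pair (difference 4.42, adjusted p = 0.00353), with the Leydig arrays nearly equal. Mgst1, the microsomal transferase, read 9939.6 in MEF and 133828 and 101341 in the Leydig pair (difference 3.55, adjusted p = 0.0178), and Gstt1, of the theta class, 1478 in MEF and 19915 and 12531 in the Leydig pair (difference 3.40, adjusted p = 0.00958). Ephx1, the epoxide hydrolase, differed by 2.72 (adjusted p = 0.0345) and Gsta4 by 3.21 (adjusted p = 0.0205). The lower gene was Gsto1, the omega-class transferase (difference -2.69, adjusted p = 0.026). Gstt1 (3.74) and Gsta4 (2.67) did not pass without Leydig replicate 2, at adjusted p of 0.052 to 0.0764. Mgst1 (3.35 and 3.75), Ephx1 (2.58 and 2.85) and Gsto1 (-2.60 and -2.77) lost the call whichever Leydig array was left out (values without replicate 1, then without replicate 2), with adjusted p up to 0.147.

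Several fatty acid oxidation genes were higher in Leydig cells. Of 19 oxidation and peroxisome genes 6 were called higher (2 without Leydig replicate 1 and 0 without replicate 2) and none lower, with a median of 1.37. Acaa2, a mitochondrial thiolase, read 45058 in MEF and 336938 and 347438 in the Leydig pair (difference 2.92, adjusted p = 0.00914), and Acadm, the medium-chain acyl-CoA dehydrogenase, 16592 in MEF and 77769.7 and 100344 in the Leydig pair (difference 2.41, adjusted p = 0.0185). Ech1, a dienoyl-CoA isomerase, read 19828 in MEF and 79898 and 97012 in the Leydig pair (difference 2.15, adjusted p = 0.04). Ppara, the fatty acid receptor that governs such genes, read 287 in MEF and 5506 and 7899 in the Leydig pair (difference 4.45, adjusted p = 0.00435), although its other probe gave 1.32. Cpt2 (difference 2.14, adjusted p = 0.0418) and Hadh (difference 1.93, adjusted p = 0.0321) were the other called members. None of the 19 listed respiratory chain and ATP synthase genes passed, the median being 0.14, with Cox7a1 at 1.93 (adjusted p = 0.0666) and Atp5o at -1.31 (adjusted p = 0.121). Cox7a1 passed with 64 added, with the floor, with median centring and with quantile normalization (1.81 to 2.03). Atp5b, an ATP synthase gene outside the list, was called higher and is described further on. Without replicate 2 the call was lost for Ppara (4.19) and Acaa2 (2.90), at adjusted p of 0.0513 to 0.0677. Left out one at a time, the Leydig arrays each ended the call of Acadm (2.60 and 2.23), Ech1 (2.29 and 2.01), Cpt2 (2.46 and 1.82) and Hadh (1.93 and 1.93) (differences without replicate 1, then without replicate 2), with adjusted p up to 0.167.

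Prostaglandin genes were called in both directions, 1 higher and 2 lower (0 higher and 1 lower with either Leydig array left out). Ptgs2, the inducible cyclooxygenase, read 63700.4 in MEF and 87.2 and 492 in the Leydig pair, a difference of -8.12 ± 0.91 (SE, limma adjusted p = 0.00701). Ptges, the prostaglandin E synthase that acts after it, read 3674 in MEF and 54456 and 33863 in the Leydig pair, higher on both Leydig arrays (difference 3.54, adjusted p = 0.0326). Ptgfr, the receptor for prostaglandin F, read 601 in MEF and 90.3 and 62.2 in the Leydig pair, a difference of -2.76 (adjusted p = 0.0199) between dim readings that shrank to -0.89 with each array floored at its 20th percentile. The other 9 of 12 genes did not pass (median -0.26). Over all genes 3.34% were called higher and 3.97% lower. The calls needed both Leydig arrays for Ptges (3.20 and 3.88) and Ptgfr (-2.98 and -2.54), given as differences without replicate 1, then without replicate 2, with adjusted p up to 0.152.

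Nearly all interferon response genes read higher in Leydig cells. Of 17, 16 were above the MEF array on both Leydig arrays and 9 were called higher (8 without Leydig replicate 1 and 2 without replicate 2), with none lower and a median of 3.04. Rsad2, the antiviral protein viperin, read 2453 in MEF and 49698 and 104797 in the Leydig pair, a difference of 4.87 ± 0.52 (SE, limma adjusted p = 0.00606). Irf7, the transcription factor that amplifies interferon production, read 9672 in MEF and 265590.0 and 183924 in the Leydig pair (difference 4.51, adjusted p = 0.00412). Mx1, an antiviral GTPase, read 219 in MEF and 5193 and 6394 in the Leydig pair (difference 4.62, adjusted p = 0.00432), and Oasl2, an oligoadenylate synthetase-like gene, 8572 in MEF and 171735 and 148938 in the Leydig pair (difference 4.22, adjusted p = 0.00435). In each of these both Leydig arrays stood well above the MEF array. The immunoproteasome subunit genes Psmb9 and Psmb10, chosen after their values were seen, read 1538 against 33565 and 53289.9 and 19939.5 against 119436 and 175967 (differences 4.77, adjusted p = 0.00572, and 2.86, adjusted p = 0.0206). B2m, the light chain of class I molecules, read 191550.0 in MEF and 469522 and 431234 in the Leydig pair and did not pass (difference 1.23, adjusted p = 0.119). Macrophage and leukocyte markers read below the MEF array on both Leydig arrays for 15 of 21 and summed to 335824 on the MEF array, 77944 on Leydig replicate 1 and 71700 on Leydig replicate 2. Mx1 (4.47), Oasl2 (4.32) and Psmb9 (4.43) lost the call when Leydig replicate 2 was left out, at adjusted p of 0.0513 to 0.0578. With either Leydig array left out (differences without replicate 1, then without replicate 2) the call was lost for Psmb10 (3.14 and 2.58), with adjusted p up to 0.112.

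Agt, which encodes angiotensinogen, and Ace, the enzyme that makes angiotensin II, were called among 6 genes of the renin-angiotensin system (2 without Leydig replicate 1 and 1 without replicate 2), whose median was 0.28. Agt read 257 in MEF and 29289.8 and 86084 in the Leydig pair, a difference of 7.53 ± 0.72 (SE, limma adjusted p = 0.00451), and its other probe gave 8.29. Ace read 497 in MEF and 12618 and 7595 in the Leydig pair, a difference of 4.26 ± 0.50 (SE, limma adjusted p = 0.00775). Spermatids make a short form of Ace, and their part in this reading was not tested. With replicate 2 left out the test did not call Ace (4.62), at adjusted p = 0.055.

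Rankings over single genes leave out the germ and Sertoli lists, predicted genes, clones, pseudogenes and olfactory or vomeronasal genes. The 12 largest called differences that remained on the Leydig side ran from 7.41 to 8.74. Besides Mrap, Gsta3, Agt and Hsd3b1 they included Mmd2, a membrane protein of the PAQR family, which read 316 in MEF and 156715 and 116950.0 in the Leydig pair (difference 8.67, adjusted p = 0.00132). Akr1cl, an aldo-keto reductase, read 849 in MEF and 331058 and 258057 in the Leydig pair (difference 8.40, adjusted p = 0.00132), and Acsbg1, an acyl-CoA synthetase, 1521 in MEF and 266389 and 257123 in the Leydig pair (difference 7.41, adjusted p = 0.00132). Serpina5, the protein C inhibitor, read 227 in MEF and 65703 and 72054 in the Leydig pair (difference 8.15, adjusted p = 0.00267). Lcn2, a siderophore-binding lipocalin, read 514 in MEF and 41218 and 233838 in the Leydig pair (difference 7.53, adjusted p = 0.00925). Both Leydig arrays stood far above the fibroblasts for each of these genes, with the widest gap between them for Lcn2. The remaining 3 were Mrpl36 (8.74), Rchy1 (8.47) and Atp5b (8.17), genes of mitochondrial ribosomes, protein ubiquitination and ATP synthase. They read 49.1, 49.1 and 69.5 on the MEF array, within its lowest percent, and above 5000 on both iLC arrays as well as on the Leydig arrays. N4bp1 (7.02), at 68.5 on the MEF array, did the same. For these 4 genes the MEF array stood apart from all 4 other arrays. The test no longer called Serpina5 (8.08) without replicate 2, at adjusted p = 0.0504.

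On the fibroblast side the 12 largest called differences, with the same genes left out, ran from -9.33 to -7.24, and Ptgs2 and Acta1, described above, were among them. Ankrd1, a stretch-responsive cofactor, read 51313 in MEF and 76.9 and 52.1 in the Leydig pair, a difference of -9.33 ± 0.46 (SE, limma adjusted p = 0.00132). Col12a1, a fibril-associated collagen, read 101771 in MEF and 177 and 113 in the Leydig pair (difference -9.33, adjusted p = 0.00132), and Lrrc15, a surface protein of activated fibroblasts, 52798 in MEF and 167 and 113 in the Leydig pair (difference -8.43, adjusted p = 0.00132). Thbs1, a thrombospondin, read 268282 in MEF and 1109.9 and 2099 in the Leydig pair (difference -7.44, adjusted p = 0.00297). The first 3 of these were dim on both Leydig arrays and bright in the fibroblasts. Of 22 fibroblast matrix genes 7 were called lower (7 without Leydig replicate 1 and 5 without replicate 2) and none higher, 15 were below the MEF array on both Leydig arrays, and the median was -1.05. Postn, the matricellular protein periostin, read 239164 in MEF and 452 and 499 in the Leydig pair, a difference of -8.93 ± 0.46 (SE, limma adjusted p = 0.00132). Tnc, tenascin C, read 387761 in MEF and 758 and 1376 in the Leydig pair (difference -8.55, adjusted p = 0.00132), and Fn1, fibronectin, 218059 in MEF and 1039 and 673 in the Leydig pair (difference -8.0, adjusted p = 0.00157). Lox, which cross-links collagen, read 125312 in MEF and 1117 and 589 in the Leydig pair (difference -7.24, adjusted p = 0.00219). Thy1, S100a4 and Col5a2 were the other called genes (-6.85, -4.11 and -3.14). The call of S100a4 (-3.47) and Col5a2 (-2.49) was lost without Leydig replicate 2, at adjusted p of 0.0551 to 0.0792.

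Some other mesenchymal genes read near or above the fibroblast level in the Leydig samples. Sparc, a collagen-binding glycoprotein, read 292159 in MEF and 314965 and 263404 in the Leydig pair (difference -0.02, adjusted p = 0.988), and Vim, the filament protein vimentin, 218063 in MEF and 170193 and 180020.0 in the Leydig pair (difference -0.32, adjusted p = 0.732). Dcn, the proteoglycan decorin, was above the MEF array on both Leydig arrays, at 88499 in MEF and 317284 and 244914 in the Leydig pair, without passing (difference 1.66, adjusted p = 0.0657). Eln, the elastin gene, read 8245 in MEF and 21803 and 16985 in the Leydig pair (difference 1.22, adjusted p = 0.139). The collagens Col1a2 and Col3a1 and the proteoglycan Lum separated the Leydig arrays from each other. Col1a2 read 152861 in MEF and 77886 and 16129.5 in the Leydig pair, Col3a1 6469.7 in MEF and 30186 and 3266 in the Leydig pair and Lum 5042 in MEF and 17683 and 2082 in the Leydig pair. For Col3a1 and Lum the MEF array lay between the Leydig arrays, with replicate 1 the highest. Of the 22 matrix genes 18 read higher on replicate 1 than on replicate 2. Col1a1, a defining fibroblast gene, was dim on all 3 arrays, at 542 in MEF and 342 and 323 in the Leydig pair. These genes other than the called ones were chosen after their values were seen.

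Contractile genes read lower almost throughout. Of 13 smooth muscle and peritubular myoid genes 12 read below the MEF array on both Leydig arrays and 9 were called lower (6 without Leydig replicate 1 and 1 without replicate 2), against 44.1% and 3.97% of all genes, with a median of -2.75. Tagln, an actin-binding protein of smooth muscle, read 73587 in MEF and 247 and 159 in the Leydig pair, a difference of -8.42 ± 0.42 (SE, limma adjusted p = 0.00132). Myh11, the smooth muscle myosin, read 18682 in MEF and 509.8 and 797 in the Leydig pair (difference -4.84, adjusted p = 0.0053), and Lmod1, an actin nucleator, 11024 in MEF and 421 and 499 in the Leydig pair (difference -4.54, adjusted p = 0.00398). Acta2, the smooth muscle actin of myofibroblasts and peritubular cells, read 466436 in MEF and 29989 and 46397 in the Leydig pair (difference -3.64, adjusted p = 0.00775). It stayed bright on the Leydig arrays, and its other probe gave -7.47. Cnn2, a calponin, differed by -3.33 (adjusted p = 0.00678). Myh11 (-5.15), Lmod1 (-4.66), Acta2 (-3.96) and Cnn2 (-3.40) did not pass without Leydig replicate 2, at adjusted p of 0.0513 to 0.0565.

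Most genes of body position read below the fibroblasts in Leydig cells. Over all genes 44.1% read below the MEF array on both Leydig arrays, 3.97% were called lower and 3.34% higher. Of 38 Hox genes 31 read below the MEF array on both Leydig arrays, 13 were called lower and 2 higher (0 higher and 4 lower without Leydig replicate 1, 0 higher and 1 lower without replicate 2), and the median was -1.70. Hoxb8 read 1103 in MEF and 27.7 and 10.9 in the Leydig pair (difference -5.03, adjusted p = 0.00388), Hoxa11 2536 in MEF and 87.2 and 90.0 in the Leydig pair (difference -4.61, adjusted p = 0.00438) and Hoxa10 4600.3 in MEF and 388 and 240.4 in the Leydig pair (difference -3.84, adjusted p = 0.0118). On both Leydig arrays these 3 genes were dim. Over the other settings that kept both Leydig arrays, the difference ran from -6.02 to -1.75 for Hoxb8 and from -5.04 to -2.94 for Hoxa11. That of Hoxa10 ran from -3.95 to -3.63. With each array floored at its 20th percentile the median of the Hox list was -1.13. The 2 exceptions belonged to the Hoxd cluster. Hoxd9 read 3338 in MEF and 47519 and 32128 in the Leydig pair (difference 3.54, adjusted p = 0.01), and Hoxd4 read 940.3 in MEF and 6450.0 and 7588 in the Leydig pair (difference 2.87, adjusted p = 0.0116). Hoxd12 and Hoxd13 of the same cluster were called lower (-2.77 and -2.55). Without replicate 2 the call was lost for Hoxa11 (-4.63), at adjusted p = 0.0547. Hoxa10 (-4.17 and -3.52), Hoxd9 (3.26 and 3.83), Hoxd4 (2.99 and 2.76), Hoxd12 (-2.88 and -2.66) and Hoxd13 (-2.19 and -2.92) lost the call whichever Leydig array was left out (values without replicate 1, then without replicate 2), with adjusted p up to 0.0853.

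Of 24 genes of limb and other mesenchyme 10 were called lower and 1 higher (1 higher and 4 lower without Leydig replicate 1, 1 higher and 0 lower without replicate 2), with a median of -0.89. Tbx15, a T-box gene of limb and dermis, read 17325 in MEF and 97.4 and 148 in the Leydig pair, a difference of -6.99 ± 0.58 (SE, limma adjusted p = 0.00353). En1, the engrailed homeobox gene, read 9655 in MEF and 238 and 269 in the Leydig pair (difference -5.17, adjusted p = 0.00362), and Twist2, a dermal bHLH gene, 31141 in MEF and 2182 and 1618 in the Leydig pair (difference -4.04, adjusted p = 0.0113). The gene in the other direction was Osr2, an odd-skipped zinc-finger gene. It read 4177 in MEF and 149241 and 130591 in the Leydig pair, a difference of 5.06 ± 0.38 (SE, limma adjusted p = 0.00288), with the Leydig arrays close together. Tbx15 (-7.26) and En1 (-5.25) lost the call when Leydig replicate 2 was left out, at adjusted p = 0.0513. Left out one at a time, the Leydig arrays each ended the call of Twist2 (-4.25 and -3.83) (differences without replicate 1, then without replicate 2), with adjusted p up to 0.092.

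Cell division genes read lower in Leydig cells. All 22 mitosis genes were below the MEF array on both Leydig arrays and 19 were called lower (16 without Leydig replicate 1 and 2 without replicate 2), with a median of -3.75. Ccna2, cyclin A2, read 49508 in MEF and 2366 and 884 in the Leydig pair, a difference of -5.08 ± 0.70 (SE, limma adjusted p = 0.0122). Cenpa, the centromeric histone, read 71823 in MEF and 2604 and 2314 in the Leydig pair (difference -4.86, adjusted p = 0.00297), Tpx2, a spindle assembly factor, 11013 in MEF and 696 and 261 in the Leydig pair (difference -4.63, adjusted p = 0.0105), and Prc1, which bundles the central spindle, 133893 in MEF and 7309 and 4484 in the Leydig pair (difference -4.54, adjusted p = 0.00495). The 21 DNA replication genes also all read lower on both arrays, with 6 called (1 without Leydig replicate 1 and 0 without replicate 2) and a median of -1.54. Rrm2, a subunit of ribonucleotide reductase, read 63236 in MEF and 3221 and 5639.6 in the Leydig pair (difference -3.89, adjusted p = 0.00846), and its partner Rrm1 13299 in MEF and 2431 and 1857 in the Leydig pair (difference -2.64, adjusted p = 0.0267). Mcm10, a loading factor of the replication fork, differed by -2.51 (adjusted p = 0.0171), and E2f1, the S-phase transcription factor, by -2.31 (adjusted p = 0.046). The probes of Mki67, the usual proliferation marker, disagreed. The brighter one read 36627 in MEF and 32574 and 36300.4 in the Leydig pair, a difference of -0.09, and the other gave -4.24. Their mean differed by -2.16 and passed (adjusted p = 0.0257). With replicate 2 left out the test did not call Ccna2 (-4.38), Tpx2 (-3.95), Prc1 (-4.19) and Rrm2 (-4.29), at adjusted p of 0.051 to 0.0722. The calls needed both Leydig arrays for Rrm1 (-2.83 and -2.44), Mcm10 (-2.60 and -2.42) and E2f1 (-2.60 and -2.01), given as differences without replicate 1, then without replicate 2, with adjusted p up to 0.185.

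Some imprinted fetal growth genes were lower as well. H19, an imprinted RNA of fetal tissue, read 251981 in MEF and 1048 and 2287 in the Leydig pair, a difference of -7.33 ± 0.70 (SE, limma adjusted p = 0.00466). Igf2, the fetal growth factor that shares its control region, read 386593 in MEF and 37962 and 47017 in the Leydig pair (difference -3.19, adjusted p = 0.00775). Cdkn1c, a cell cycle inhibitor, read 74993 in MEF and 13172 and 8543 in the Leydig pair (difference -2.82, adjusted p = 0.0154), and Igf2r, which clears the growth factor, 73664 in MEF and 7728 and 15065 in the Leydig pair (difference -2.77, adjusted p = 0.0382). In all 5 of 18 imprinted genes were called lower (3 without Leydig replicate 1 and 0 without replicate 2) and none higher, with a median of -0.59. Igf1, the growth factor of adult life, lay above the MEF array on both Leydig arrays, at 2022 in MEF and 22100.2 and 7347 in the Leydig pair, without passing (difference 2.65, adjusted p = 0.0941). Among the binding proteins Igfbp5 read 46918 in MEF and 454 and 757 in the Leydig pair (difference -6.28, adjusted p = 0.00297) and Igfbp3 11740.5 in MEF and 1670.0 and 1039 in the Leydig pair (difference -3.14, adjusted p = 0.0267), while Igfbp6 was higher, at 15436 in MEF and 170932 and 114794 in the Leydig pair (difference 3.18, adjusted p = 0.0233). Of 11 genes of the insulin-like growth factor system 4 were called lower and 1 higher (0 higher and 2 lower without Leydig replicate 1, 0 higher and 1 lower without replicate 2), with a median of 0.05. The test no longer called H19 (-7.89), Igf2 (-3.35) and Cdkn1c (-2.51) without replicate 2, at adjusted p of 0.0513 to 0.0771. With either Leydig array left out (differences without replicate 1, then without replicate 2) the call was lost for Igf2r (-2.29 and -3.25), Igfbp3 (-3.48 and -2.80) and Igfbp6 (2.89 and 3.47), with adjusted p up to 0.147.

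Secreted regulators of the Wnt and TGF-beta families followed, with 8 of 26 called lower and 1 higher (1 higher and 5 lower without Leydig replicate 1, 0 higher and 1 lower without replicate 2) and a median of -0.68. Among all genes 3.97% were called lower and 3.34% higher. Dkk3, of the dickkopf family, read 26207 in MEF and 429 and 247 in the Leydig pair, a difference of -6.26 ± 0.47 (SE, limma adjusted p = 0.00297). Tgfb3 read 165381 in MEF and 13822 and 4719.9 in the Leydig pair (difference -4.35, adjusted p = 0.0174), and Fst, the activin-binding protein follistatin, 10836 in MEF and 749 and 604 in the Leydig pair (difference -3.98, adjusted p = 0.00572). The inhibin and activin subunits divided. The beta subunit genes Inhbb and Inhba were lower (-3.99 and -3.82), and the alpha subunit gene Inha, which turns them into inhibin, was higher (difference 3.65, adjusted p = 0.00614). Of 16 adhesion genes 7 were called lower and 1 higher (0 higher and 2 lower without Leydig replicate 1, 0 higher and 1 lower without replicate 2), with a median of -1.38. Cd44, the hyaluronan receptor, read 53064 in MEF and 844 and 2019 in the Leydig pair (difference -5.33, adjusted p = 0.00589). Ncam1, a neural cell adhesion molecule, differed by -3.50 (adjusted p = 0.00925) and Cdh2, N-cadherin, by -3.08 (adjusted p = 0.0161). Vcam1, the adhesion molecule that leukocytes bind, was the higher gene, at 41106 in MEF and 312235 and 422875 in the Leydig pair (difference 3.14, adjusted p = 0.0142). The call of Tgfb3 (-3.58), Inhbb (-3.90), Inhba (-4.01), Inha (3.84) and Fst (-3.83) was lost without Leydig replicate 2, at adjusted p of 0.0513 to 0.0682. Ncam1 (-3.65 and -3.36), Cdh2 (-3.03 and -3.13) and Vcam1 (3.36 and 2.92) lost the call whichever Leydig array was left out (values without replicate 1, then without replicate 2), with adjusted p up to 0.0984.

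Housekeeping and stress genes gave no call. None of 7 reference genes passed (median -0.24), the largest difference of this list on the lower side being that of the tubulin gene Tubb5 (difference -1.12, adjusted p = 0.256). None of 16 genes of the unfolded protein response passed (median -0.44), Chac1 differing by -1.44 (adjusted p = 0.0948) and Sdf2l1 by -1.26 (adjusted p = 0.282). Of 8 sex-linked genes none passed either, and the largest differences were those of the Y-linked genes Kdm5d (1.16) and Eif2s3y (0.71).

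Genes listed as Sertoli cell markers are given apart. Not all are particular to Sertoli cells, as Clu and Inhbb read 23088 and 23540 on the MEF array. Over all genes 32.9% read above the MEF array on both Leydig arrays, 3.34% were called higher and 3.97% lower. Of 20 listed genes 12 read above the MEF array on both Leydig arrays, 4 were called higher and 1 lower (2 higher and 1 lower without Leydig replicate 1, 1 higher and 0 lower without replicate 2), the median was 0.42, and their summed intensity was 211586 on the MEF array, 641354 on Leydig replicate 1 and 748854 on Leydig replicate 2. Defb19, a defensin gene, read 152 in MEF and 72091 and 122066 in the Leydig pair, a difference of 9.12 ± 0.47 (SE, limma adjusted p = 0.00132), larger than any Leydig-side difference in the ranking above. Aard read 1314 in MEF and 50609 and 147767 in the Leydig pair (difference 6.02, adjusted p = 0.00759), Clu, the secreted chaperone clusterin, 23088 in MEF and 332720.0 and 369002 in the Leydig pair (difference 3.92, adjusted p = 0.0082), and Cldn11, a tight-junction claudin, 513 in MEF and 4818 and 2505 in the Leydig pair (difference 2.72, adjusted p = 0.0291). Amh, Sox9 and Fshr did not share this. Amh, anti-Müllerian hormone, read 229 in MEF and 89.2 and 216 in the Leydig pair, Sox9, the Sertoli determinant, 1306 in MEF and 450.3 and 1119.9 in the Leydig pair, and Fshr, the follicle-stimulating hormone receptor, 1656 in MEF and 1852 and 1893 in the Leydig pair. Amh and Sox9 lay below the MEF array on both Leydig arrays, Fshr lay close to it, and none of these 3 passed. The Amh probe was dim on all 3 arrays, so nothing about Sertoli cell content is read from it. The lower gene was the activin subunit Inhbb (-3.99). The part of Sertoli cells in other Leydig differences was not tested. Aard (5.25) and Inhbb (-3.90) did not pass without Leydig replicate 2, at adjusted p = 0.0513. Left out one at a time, the Leydig arrays each ended the call of Clu (4.0 and 3.85) and Cldn11 (2.25 and 3.19) (differences without replicate 1, then without replicate 2), with adjusted p up to 0.0856.

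Germ cell transcripts fell into 2 patterns. Over all genes 32.9% read above the MEF array on both Leydig arrays and 3.34% were called higher. Of 22 genes of spermatogonia and spermatocytes 17 read above the MEF array on both Leydig arrays and 4 were called higher (3 without Leydig replicate 1 and 0 without replicate 2), with a median of 0.96. The calls numbered 7 after quantile normalization and 0 with the filter on dim genes. The median difference from MEF was 1.06 on replicate 1 and 1.20 on replicate 2. The summed intensity of the 22 genes was 153112 on the MEF array, 100099 on Leydig replicate 1 and 234727 on Leydig replicate 2. Ldhc, the germ cell lactate dehydrogenase, read 110.4 in MEF and 8223 and 15116 in the Leydig pair (difference 6.47, adjusted p = 0.00676), and Mael, a piRNA pathway gene, 269.8 in MEF and 3661 and 6575 in the Leydig pair (difference 4.11, adjusted p = 0.00822). Zbtb16, a spermatogonial zinc-finger gene, read 238 in MEF and 2333 and 3508 in the Leydig pair (difference 3.50, adjusted p = 0.0255), and Dazl, an RNA-binding protein of germ cells, 329 in MEF and 3150.1 and 2389 in the Leydig pair (difference 3.0, adjusted p = 0.0105). Both Leydig arrays carried these 4 transcripts. They were named because they were called, and a wide gap between the Leydig arrays works against a call. Without replicate 2 the call was lost for Ldhc (6.03) and Mael (3.69), at adjusted p of 0.0613 to 0.07. The calls needed both Leydig arrays for Zbtb16 (3.79 and 3.21) and Dazl (2.80 and 3.20), given as differences without replicate 1, then without replicate 2, with adjusted p up to 0.152.

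Spermatid genes formed the other pattern, to be set beside the same 32.9% above and 3.34% called higher over all genes. Here 17 of 22 read above the MEF array on both Leydig arrays, with a median difference of 3.31, but none was called (14 without Leydig replicate 1 and 2 without replicate 2). After quantile normalization 5 were called, and after median centring 3, as with the filter on dim genes. Their summed intensity was 15260 on the MEF array, 39293 on Leydig replicate 1 and 1727174 on Leydig replicate 2. The median difference from MEF was 1.02 on replicate 1 and 5.55 on replicate 2, and 1 of the 22 genes read higher on replicate 1 than on replicate 2. Prm1, a protamine that packs sperm DNA, read 238 in MEF and 6235 and 141591 in the Leydig pair, and Crisp2, an acrosomal protein, 164 in MEF and 4553 and 169744 in the Leydig pair. The differences of 6.87 (adjusted p = 0.0589) and 7.28 (adjusted p = 0.0746) missed the threshold, and without replicate 1 they were 9.12 and 9.89, past it (adjusted p = 0.0284 and 0.0284), as they were without replicate 2 (4.62 and 4.67, adjusted p = 0.0482 and 0.0482). Odf1, of the outer dense fibres of the sperm tail, read 462 in MEF and 2692 and 356634 in the Leydig pair, Smcp, of the mitochondrial sheath, 981 in MEF and 1800.2 and 313236 in the Leydig pair, and Oaz3, an antizyme of spermatids, 562 in MEF and 3240.4 and 397097 in the Leydig pair. On all 5 genes replicate 2 stood far above both other arrays.

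**Figure D3:**
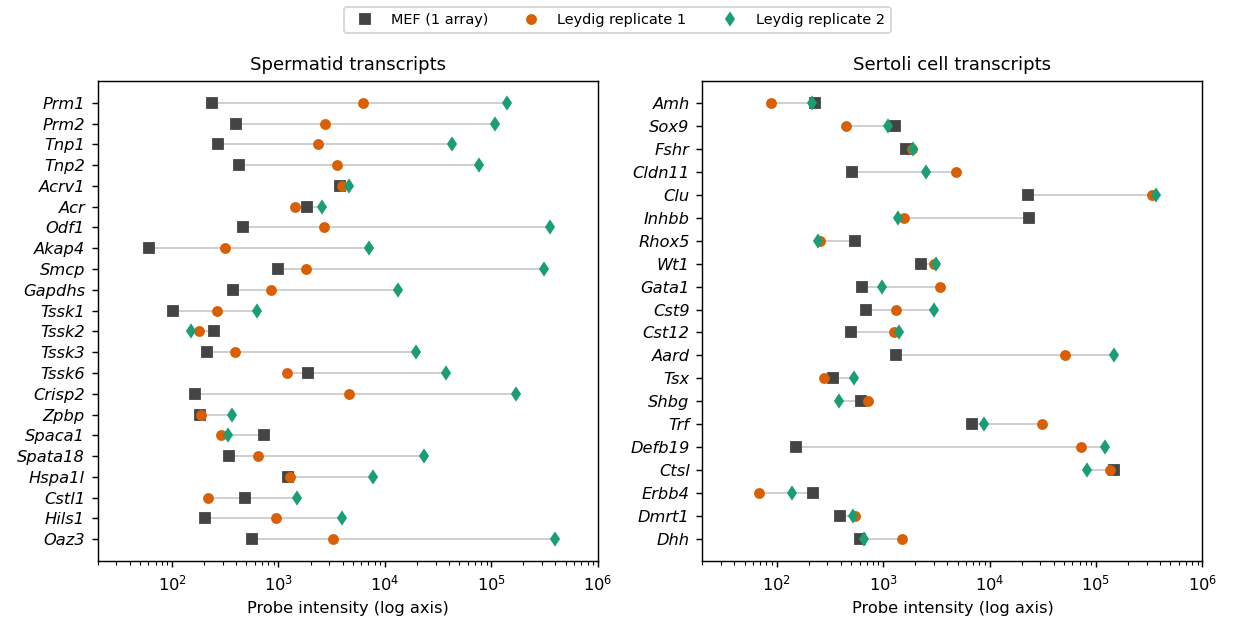
Probe intensity on a log axis for 22 spermatid genes (left) and 20 Sertoli cell genes (right), with 1 marker per array for MEF, Leydig replicate 1 and Leydig replicate 2. Spermatid genes such as Oaz3 (3240 and 397097 on replicates 1 and 2) separate the Leydig arrays, while Defb19 (72091 and 122066) and Clu do not, and Amh and Sox9 lie at or below MEF.

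A gap of at least 4 log2 units between the Leydig arrays was found for 73 genes higher on replicate 2 (0.383% of all 19084 genes) and for 8 higher on replicate 1. The 73 included 12 of the 22 spermatid genes. Such a gap widens a gene's standard error by itself, so nothing is read from the calls of these genes. With the same genes left out as in the rankings above, the 8 largest gaps were those of Tppp2, Bcl2l14, Ptgds, Fam243, Dbil5, Cabs1 and Ubl4b, higher on replicate 2, and Mycbp2, higher on replicate 1. Tppp2, a tubulin-binding protein, read 102 in MEF and 188 and 53169.7 in the Leydig pair, and Dbil5, an acyl-CoA binding protein of the testis, 202 in MEF and 1549.9 and 133488 in the Leydig pair. Bcl2l14, of the BCL2 family, read 219.7 in MEF and 436 and 69214 in the Leydig pair, Cabs1, a calcium-binding protein of spermatids, 866 in MEF and 1543 and 108483 in the Leydig pair, Fam243 248 in MEF and 352 and 33810.1 in the Leydig pair and Ubl4b 253 in MEF and 285 and 20285 in the Leydig pair. Mycbp2, a ubiquitin ligase, read 48.0 in MEF and 5165 and -18.5 in the Leydig pair. Its MEF and replicate 2 readings were both at the bottom of their arrays, and the gene was split.

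**Figure D4:**
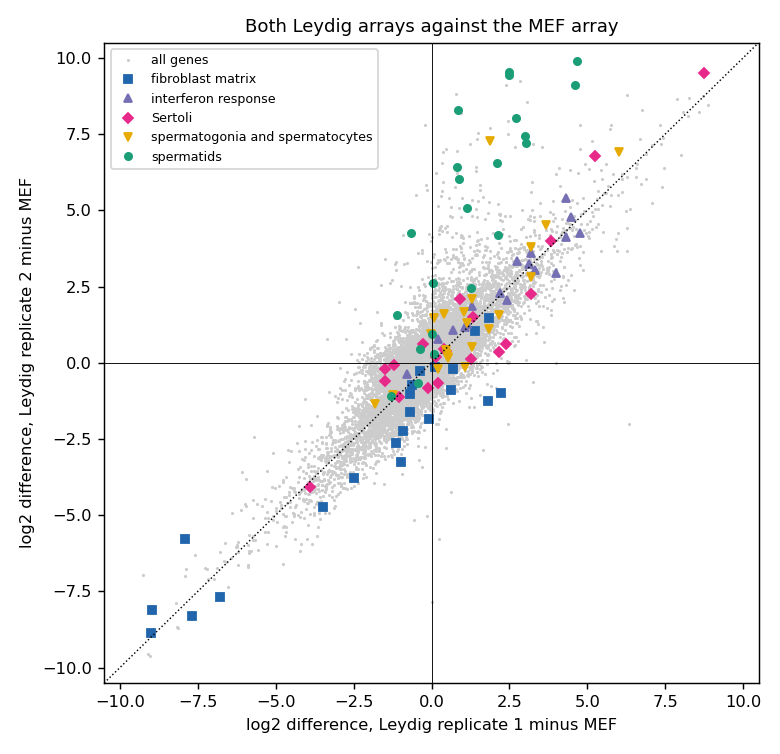
Difference from the MEF array on the log2(intensity + 16) scale for Leydig replicate 1 (horizontal axis) and Leydig replicate 2 (vertical axis), 1 point per gene. Grey points are all genes and coloured points the members of 5 lists; the dotted line marks equal differences on both arrays. Most spermatid genes lie above that line, with medians of 1.02 on replicate 1 and 5.55 on replicate 2.

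Markers of other cells that either sample could hold are given last. Beside their counts, 3.34% of all genes were called higher and 3.97% lower. Of 21 macrophage and leukocyte genes 9 were called lower in Leydig cells (3 without Leydig replicate 1 and 1 without replicate 2) and none higher, with a median of -2.37. The count was 5 with low ends aligned and 13 after median centring or quantile normalization. Lyz1, a lysozyme gene, read 15534 in MEF and 169 and 491 in the Leydig pair (difference -5.67, adjusted p = 0.00775). The complement gene C1qa read 44571 in MEF and 2751 and 793 in the Leydig pair (difference -4.90, adjusted p = 0.0173). Its relative C1qb read 41769 in MEF and 2897 and 657 in the Leydig pair (difference -4.90, adjusted p = 0.0299). C1qc went with them (-4.38), as did the receptors Csf1r (difference -2.67, adjusted p = 0.0159) and Adgre1 (difference -2.89, adjusted p = 0.0414). The macrophage readings were thus highest on the MEF array, while H2-Aa, a class II gene of antigen-presenting cells, was the other way round, at 907 in MEF and 10572 and 9248 in the Leydig pair, and missed the threshold (difference 3.42, adjusted p = 0.0563). Endothelial genes divided, with Cdh5, VE-cadherin, higher (difference 3.37, adjusted p = 0.00993) and Flt1, a VEGF receptor, and Emcn, endomucin, lower (differences -4.56, adjusted p = 0.00578, and -2.33, adjusted p = 0.0174) among 12 (1 higher and 1 lower without Leydig replicate 1, 0 higher and 0 lower without replicate 2), and the median was 0.19. Erythroid genes were divided. Of 4, 2 were called higher (1 with either Leydig array left out) and the other 2 read below the MEF array on both Leydig arrays. The adult beta globin Hbb-b1 read 205 in MEF and 20935 and 18462 in the Leydig pair (difference 6.47, adjusted p = 0.00132) and Alas2, the heme enzyme of red cells, 581 in MEF and 7007 and 8473 in the Leydig pair (difference 3.69, adjusted p = 0.0251). On the cultured iLC arrays Alas2 read 11957 and 35000, above the Leydig pair, and Hbb-b1 178 and 177. Nothing about red cells is therefore read from Alas2. Slc4a1, the band 3 anion exchanger, read 247 in MEF and 235 and 156 in the Leydig pair (difference -0.34, adjusted p = 0.739), and Epb42, protein 4.2 of the red cell membrane, 135 in MEF and 109.8 and 63.1 in the Leydig pair (difference -0.60, adjusted p = 0.581). Of 11 epithelial genes 2 were called lower (1 with either Leydig array left out). Krt19 was lower, at 12216 in MEF and 557 and 362 in the Leydig pair (difference -4.72, adjusted p = 0.00398), and Krt8 was called between readings of 67.5 in MEF and 6.15 and -10.1 in the Leydig pair, all of them dim (difference -2.15, adjusted p = 0.0286), with no difference left once the low ends of the arrays were aligned. The median of the epithelial list was -0.16 and that of the erythroid list 1.68. The part of these cells in the differences above was not tested. C1qa (-4.01), C1qb (-3.84), Cdh5 (3.70) and Flt1 (-4.72) lost the call when Leydig replicate 2 was left out, at adjusted p of 0.052 to 0.102. With either Leydig array left out (differences without replicate 1, then without replicate 2) the call was lost for C1qc (-5.01 and -3.76), Csf1r (-2.49 and -2.85), Adgre1 (-3.16 and -2.62), Emcn (-2.31 and -2.34), Alas2 (3.83 and 3.56) and Krt8 (-2.38 and -1.91), with adjusted p up to 0.197.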

How the data were processed

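RNA was measured on 5 single-colour arrays (Cy5, per the labels' protocols), grouped by their titles: 1 MEF, 2 iLC and 2 Leydig. The deposited values are linear probe intensity values processed by the authors. Their background correction and normalization are not stated in the labels or the file. The low end of an array can shift the reading of a dim probe. Of 26423 probes, 21876 had 1 gene symbol in the platform annotation, 0 had several and 4547 had none, and 21825 matched a RefSeq gene table (GRCm38.p6) by Entrez identifier, with 0 renamed. Where a gene had several probes (2424 genes), that of the highest mean over the 5 arrays was taken. Of 149 called genes with other probes, all other probes went the same way for 133. Values below 0 (46 on Leydig replicate 2, 0 on the MEF array and on Leydig replicate 1) were set to 0, 16 was added and log2 taken, which shrinks differences of dim genes.

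The model of limma 3.58.1 in R 4.3.3 (lmFit, eBayes) had 1 mean per group over all 5 arrays, with residual df 2 and prior df 4.21. The log2 SD between paired arrays was 0.548 (Leydig) and 0.459 (iLC) as a root mean square. MEF, with 1 array, was taken to vary as the pairs do. Tests were two-sided, with Benjamini-Hochberg adjustment over 19084 genes and a threshold of 0.05. Tested on simulated data for this comparison over 19084 genes, the fit recovered 70 of 100 genes changed by 3 log2 units and 94 of 100 changed by 5, with 10 false calls among 18884 unchanged genes. The simulated noise was normal and of equal spread on all 5 arrays, as the model assumes. These counts therefore do not test that assumption, and they cover no shifted low end and no array that stands apart. With 3 arrays in the comparison their number limits the precision. 0 columns belonged to no sample. The depth and detection of single probes were not used.

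The 35 gene lists, the rule for named genes and the tests were chosen with earlier results of these data known, so lists are described by counts and medians without a test. Named by rule were all measured steroid and adult Leydig genes, the 12 largest called differences in each direction outside the germ and Sertoli lists (without predicted genes, clones, pseudogenes and olfactory or vomeronasal genes), at most 4 called members from each of the other lists, up to 2 further members where fewer than 2 were called, and the 8 largest gaps between the Leydig arrays. Further genes were chosen with their values in view, to spell out a count or give a list's defining gene. Promoter matches were searched by pattern and carry no test.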

Additional observations from a re-analysis of the deposited data

Results flagged for a closer look

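Probes without a gene symbol took no part in the comparison. Of 4547 such probes, 42 (0.924%) exceeded their MEF reading by at least 2 log2 units on both Leydig arrays, and 45 (0.99%) lay below it by as much, against 3.14% and 3.48% of named genes. The units of these shares are unlike, as each named gene was counted by its probe of the highest mean and the others probe by probe. What the probes without a symbol measure is not analysed here, and the difference between the shares was not tested.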

How the results depend on the processing

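Among called named genes, the difference of Krt8 went from -2.15 to -0.11 with the floor and to no difference with low ends aligned. The sign changed for some genes that had not passed: Sparc (0.0375 after quantile normalization, and -0.15 to 0.11 with a Leydig array left out), Hsd17b3 (-0.94 to 0.76 with a Leydig array left out), Mycbp2 (-2.0 to 6.34), Col3a1 (-0.98 to 2.22) and Lum (-1.27 to 1.81). The cause of these reversals was not tested, beyond the gap between the Leydig arrays that the left-out array shows. Leaving out single arrays gave 79 to 429 genes called higher and 74 to 535 called lower, of which 76 and 73 without Leydig replicate 2, and 232 and 288 without replicate 1, were also called with all arrays. At an unadjusted p under 0.05 limma gave 3395 and 3724 genes without replicates 2 and 1. Each such fit loses 1 of 2 residual degrees of freedom. Genes at least 2 log2 units to one side on every Leydig array kept numbered 1091 higher and 983 lower without replicate 1, and 785 and 875 without replicate 2. Of 148 named calls, 53 held without Leydig replicate 2, 100 without replicate 1 and 135 without an iLC array, which gives the same differences and calls as the 3 arrays alone (429 higher and 535 lower). The 13 lost there were Akr1c14, Prkar2a, Pdgfrb, Ech1, E2f1, Igf2r, Krt8, Nr2f2, Cldn11, Col5a2, Cpt2, Hadh and Hoxd13, at adjusted p of 0.0534 to 0.0841. The other settings gave 451 to 931 higher and 550 to 1004 lower. Adding 1 in place of 16 kept 127 of the 148, and aligning the low ends of the arrays kept 128. Both ended the calls of Cyp17a1, Akr1c14, Pde4b, Prkar2a, Ech1, Ptges, E2f1, Igf2r, Igfbp3, Zbtb16, C1qb, Alas2, Krt8, Nr2f2, Col5a2, Adgre1, Ephx1 and Cpt2, with adjusted p up to 0.0766 except for Krt8. Krt8, a dim probe, also lost its call with 64 added, with the floor, with quantile normalization and with a mean-variance trend. The floor ended the calls of Ptgfr and Hoxd12, and the mean over a gene's probes that of Pde4b (-1.43). Over the settings that kept both Leydig arrays, calls ran from 3 to 8 for DNA replication and for fatty acid oxidation, from 3 to 6 for imprinted genes, from 5 to 13 for macrophage genes, from 0 to 7 for genes of spermatogonia and spermatocytes, from 2 to 4 for the lower genes of the IGF system and of the prostaglandin list, and from 1 to 4 for cholesterol synthesis. The median of the prostaglandin list (-0.26) was 0.17 after quantile normalization and 0.23 with low ends aligned. No paired analysis was possible because the MEF group has 1 array with no replicate number, so the groups compared share fewer than 2 numbers. Without detection flags, differences that rest on dim readings have no known bound.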

Other observations

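Several genes of the complement and acute-phase response, chosen after their values were seen, were higher in Leydig cells. Cfb, complement factor B, read 427 in MEF and 75182 and 24187 in the Leydig pair, a difference of 6.59 (limma adjusted p = 0.00572). C2, complement component 2, differed by 5.86 (adjusted p = 0.00321) and Serping1, the C1 inhibitor, by 4.89 (adjusted p = 0.00707). Lbp, the lipopolysaccharide-binding protein, differed by 5.75 (adjusted p = 0.00288) and Lrg1, a leucine-rich glycoprotein of plasma, by 6.22 (adjusted p = 0.0106). Both Leydig arrays were above the MEF array for all 5. The C1q genes, made by macrophages, were by contrast lower in Leydig cells. Greb1, known as an estrogen-responsive gene, read 241 in MEF and 30699 and 16858 in the Leydig pair, a difference of 6.47 (adjusted p = 0.00288).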
